A study of Mus musculus with 8 samples.

Results

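The 10 genes described here encode the secreted matrix metalloproteases Mmp2, Mmp3, Mmp9 and Mmp13, the membrane-anchored Mmp14, the tissue inhibitors of metalloproteases Timp1, Timp2 and Timp3, the secreted protease Adamts1 and Plaur, the cell-surface receptor of urokinase. They were chosen by gene symbol, as every probe set whose only symbol in the platform annotation was one of these names. All 10 genes were on the array, with 15 probe sets, among 8251 genes that have a probe set of their own. A probe set was tested where its log2 value reached 5 on at least 2 of the 8 arrays, which 9 of the 15 probe sets did, 1 for each gene except Mmp2.

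The cells were fibroblasts of mouse embryos, the cells that build and remodel connective tissue. There was 1 line labelled STAT3+/+ (WT) and 1 labelled STAT3-/- (KO), both immortalised spontaneously. Cells of each line were untreated or received 20 ng/ml oncostatin M (OSM), an interleukin-6 type cytokine, for 30 minutes, and all were kept in medium with serum. The treatment was read from the sample titles, since the growth text names OSM for every sample. Each of the 4 groups held 2 arrays, which the titles number 02 and 03 (replicates 2 and 3). Because 1 line stood for each genotype, the loss of Stat3 and any other difference between the lines cannot be told apart. Whether the paired arrays of a group stem from separate cultures is not stated, so the p-values reflect array-to-array spread alone, and that may be technical.

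Matrix metalloproteases are zinc enzymes that cut collagens and other matrix proteins, and most are made as inactive precursors. TIMPs bind the active enzymes and block them, so the balance of the 2 families sets how much matrix is broken down. In fibroblasts many of these genes respond to cytokines and growth factors through the MAP kinase pathway and the AP-1 transcription factors, and Timp1 is a known OSM target.

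The start regions of 8 of the 10 genes were present in the RefSeq promoter table, and 250 bases before the annotated start were searched. The 4 printed here belong to the genes on which the results below turn. Mmp3 and Mmp13 differed most between arrays, and Plaur had OSM differences of at least 0.5 in all 4 pairs of arrays. Timp1 had the smallest p for OSM in WT cells. Each window is given 5′ to 3′ on the coding strand (GRCm38.p6), with matches to the AP-1 motif TGANTCA in capitals.
Mmp3 (chr9:7445572-7445821, + strand): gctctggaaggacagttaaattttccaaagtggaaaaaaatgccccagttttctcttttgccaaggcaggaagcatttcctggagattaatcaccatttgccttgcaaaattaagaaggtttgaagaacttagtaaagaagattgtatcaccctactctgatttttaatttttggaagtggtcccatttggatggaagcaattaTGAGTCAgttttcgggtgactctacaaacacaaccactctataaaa
Mmp13 (chr9:7272264-7272513, + strand): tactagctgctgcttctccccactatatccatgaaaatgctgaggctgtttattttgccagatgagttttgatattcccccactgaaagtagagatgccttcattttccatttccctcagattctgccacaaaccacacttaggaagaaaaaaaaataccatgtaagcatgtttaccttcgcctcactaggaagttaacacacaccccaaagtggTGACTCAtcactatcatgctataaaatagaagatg
Plaur (chr7:24462233-24462482, + strand): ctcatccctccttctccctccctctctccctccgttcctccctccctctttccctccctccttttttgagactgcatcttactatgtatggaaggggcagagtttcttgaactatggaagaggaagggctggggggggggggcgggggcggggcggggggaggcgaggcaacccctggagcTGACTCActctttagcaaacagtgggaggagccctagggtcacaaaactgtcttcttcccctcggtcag
Timp1 (chrX:20869916-20870165, + strand): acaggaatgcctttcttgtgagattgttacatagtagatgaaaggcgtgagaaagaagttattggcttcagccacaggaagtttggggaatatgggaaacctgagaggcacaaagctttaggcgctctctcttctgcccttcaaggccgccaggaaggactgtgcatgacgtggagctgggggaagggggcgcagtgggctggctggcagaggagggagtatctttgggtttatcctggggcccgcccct
The AP-1 match lies at bases -46 to -40 in Mmp3, -35 to -29 in Mmp13 and -69 to -63 in Plaur, where -1 is the base before the start. The other 5 windows, of Timp1, Timp2, Timp3, Mmp14 and Adamts1, hold no such letters. The motif reads the same on both strands, and 6.75% of the 32851 promoters in the table hold it. The STAT motif TTCNNNGAA, which also reads the same on both strands and does not overlap these matches, is in none of the 8 windows and in 7.02% of all promoters. These matches are descriptions of the letters in the windows and not of binding.

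Before the comparisons, Stat3 and Socs3 were read as checks of the labels. The first Stat3 probe set read 10.11 to 11.94 on the 4 WT arrays and 7.81 to 9.17 on the 4 KO arrays. The second read 9.80 to 12.57 in WT and 2.76, 2.86 and 2.94 on 3 KO arrays, but 7.30 on KO OSM replicate 3. Socs3, the feedback inhibitor induced by OSM, was 4.70 and 5.08 higher with OSM in replicates 2 and 3 of WT cells, and 0.81 and 6.61 higher in those of KO cells. On this probe set KO cells read 8.31 and 5.38 untreated and 9.12 and 11.98 with OSM, so the untreated arrays differed too. A second Socs3 probe set was 4.77 and 4.63 higher with OSM in WT and 1.10 and 4.25 higher in KO cells. The KO OSM arrays thus stand apart on Socs3 and the second Stat3 probe set, but less on the first Stat3 probe set (8.70 and 9.17). Each result for them is given for replicate 2 and replicate 3 on its own. The fibroblast collagen Col1a1 read 14.98 to 15.87 on all arrays, while the probe sets of Vim and Thy1, also fibroblast markers, stayed at 3.4 to 3.7 and 2.2 to 2.4.

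The replicate number went with differences over much of the array. In a limma fit with the group means and the number, 2775 of the 6756 probe sets tested (41.1%) differed between replicates 3 and 2 at an adjusted p under 0.05, and each number held all 4 groups. The actin control, whose 3' signal exceeds its 5' signal where RNA is degraded, had an excess of 0.33 to 0.53 on the replicate 2 arrays and 0.72 to 1.11 on those of replicate 3. The same excess of the Gapdh control was 0.030 to 0.11 and 0.0042 to 0.27, which overlap. Their part in the results was not tested. The 18S control read between 11.02 and 11.67 on the replicate 2 arrays and between 14.75 and 15.13 on the others (log2). For this reason the differences below are given within each number as well as pooled.

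**Figure D1:**
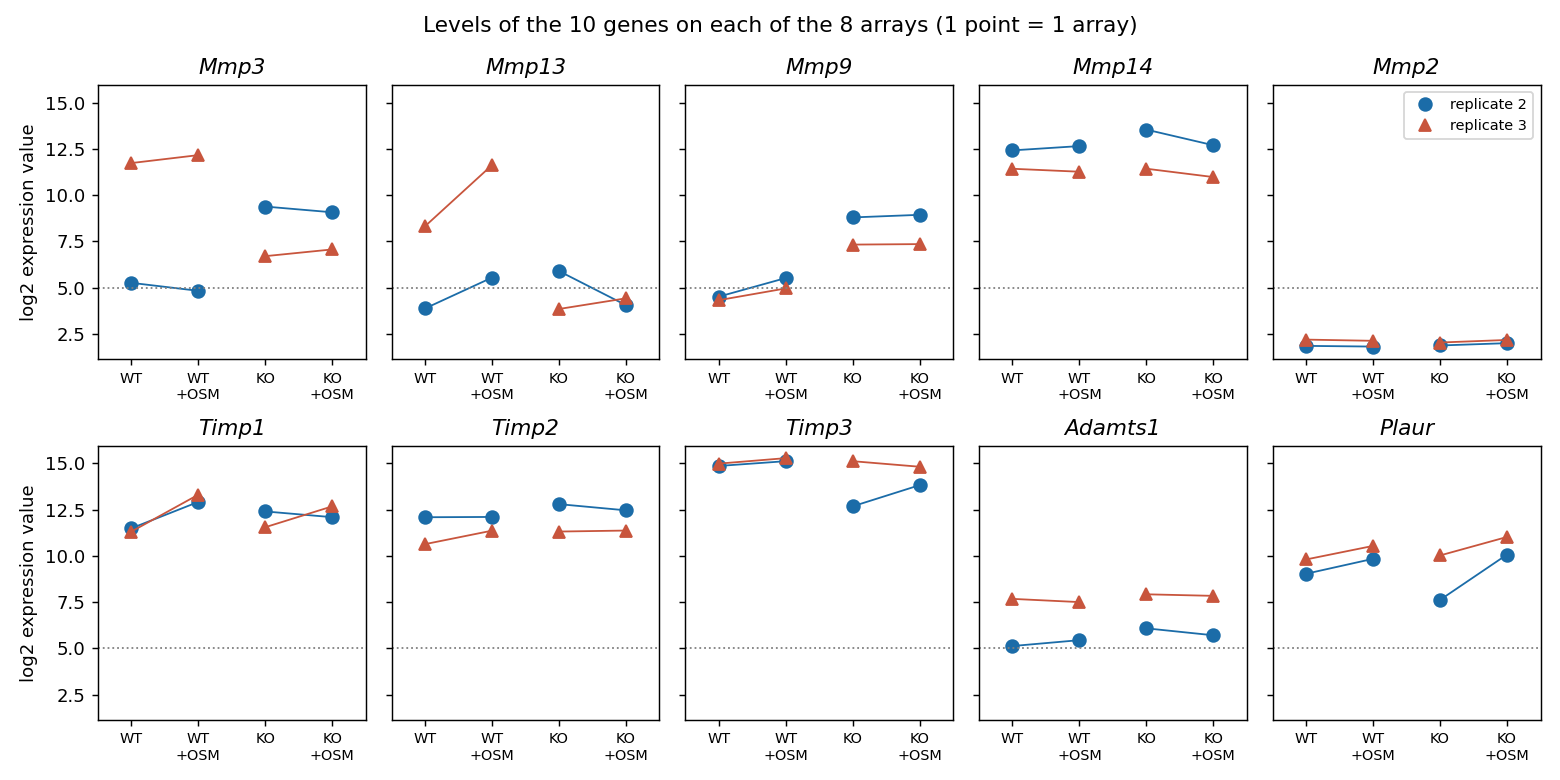
Log2 expression value (vertical axis) of the 10 genes on each array, with groups on the horizontal axis, circles for replicate 2, triangles for replicate 3 and lines joining untreated and OSM arrays of 1 line and number. The dotted line is the log2 value of 5 used for filtering. Mmp3 lies at 4.83 and 5.26 in replicate 2 but 11.73 and 12.16 in replicate 3 of WT cells, and Mmp2 stays under 5 on all arrays.

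The stromelysin Mmp3, which cuts proteoglycans and fibronectin and activates other proteases, had opposite genotype differences in the 2 replicate numbers. In WT cells it read 5.26 untreated and 4.83 with OSM in replicate 2, and 11.73 untreated and 12.16 with OSM in replicate 3. In KO cells it read 9.38 and 9.07 in replicate 2, and 6.70 and 7.06 in replicate 3. KO cells thus read 4.12 higher than WT cells within replicate 2 and 5.03 lower within replicate 3 without OSM (log2 differences of 4.12 and -5.03), and the differences with OSM were 4.24 and -5.10. The pooled difference of -0.45 ± 2.97 without OSM (SE, n = 2 arrays a group, limma adjusted p = 1) averages these and describes neither number.

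The collagenase Mmp13, which cleaves fibrillar collagen, read 3.87 and 5.54 in replicate 2 of WT cells, untreated and with OSM, and 8.32 and 11.62 in replicate 3. In KO cells it read 5.90 and 4.05 in replicate 2 and 3.85 and 4.42 in replicate 3. The high values were therefore those of WT replicate 3, and 4 of the 8 arrays lay under 5, where values are near background and differences are not exact. Without OSM the genotype difference was 2.02 within replicate 2 and -4.47 within replicate 3, and with OSM it was -1.49 and -7.20.

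The change from replicate 2 to replicate 3 was compared between the lines in a limma fit with a genotype by number term, chosen after these values were seen. For Mmp3 the change was 6.47 and 7.33 in untreated and OSM-treated WT cells and -2.68 and -2.01 in KO cells. The difference between the lines was 9.24 ± 0.44 (SE, limma adjusted p = 0.0046). For Mmp13 the change was 4.44 and 6.08 in WT and -2.05 and 0.37 in KO cells, and the difference was 6.10 ± 0.96 (SE, limma adjusted p = 0.035). These were 2 of the 9 genes tested, and 378 of all probe sets (5.6%) passed the same test. The fit leaves 2 residual degrees of freedom. Its spread is how far this change differed between the untreated and OSM arrays of the same line. The SE and p therefore do not measure how a line varies from number to number. Both calls were lost without the filter (adjusted p = 0.0568 and 0.0795), on raising all values under 5 to 5 (0.136 and 0.33), and without any 1 of the 4 WT arrays (0.0724 to 0.1 for Mmp3, 0.155 to 0.201 for Mmp13), and that of Mmp13 without either untreated KO array (0.0573 and 0.0579), while the differences stayed between 8.81 and 9.67 and between 4.89 and 7.31.

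Over all probe sets tested, 19 (0.281%) had genotype differences of at least 1 on the log2 scale with opposite signs in the 2 numbers, both untreated and with OSM. Ranked by the smallest of the 4 differences in size, Mmp3 came first at 4.12 and Cdc6 next at 2.04. Mmp3 and Mmp13 are near neighbours in the metalloprotease cluster of chromosome 9 in the RefSeq gene order, with Mmp12 and Mmp1b between them. Mmp12, Mmp10, Mmp8 and Mmp7, the other cluster genes on the array, read between 2.25 and 4.26 on every array by their highest probe set, which is near background.

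The genes with the profiles most like these, by the mean absolute log2 distance over the 8 arrays after centring each number, were Lum, Enpep and Fndc1 for Mmp3 (distances 1.02, 1.05 and 1.23) and Saa3, Csf1r and Ddx19b for Mmp13 (0.76, 0.81 and 0.83). Lum, a collagen-binding proteoglycan, read 8.04 and 8.43 in replicate 3 of WT cells and 2.56 to 3.29 on the other 6 arrays. Saa3, an acute phase protein, read 10.34 and 12.18 in replicate 3 of WT cells and 3.81 to 4.85 elsewhere. Both were chosen for likeness over these same arrays and met the filter only through that line and number, so the shared high readings follow from the choice. Lum lacked the high readings of Mmp3 in replicate 2 of KO cells, at 2.56 and 3.29 against 9.38 and 9.07. The mean absolute deviation of the centred profile was 2.31 for Mmp3 and 1.90 for Mmp13. The macrophage receptor gene Csf1r read 9.75 and 10.20 in replicate 3 of WT and 4.41 and 5.60 in replicate 3 of KO cells by the probe set named above, but 8.89 and 9.05 against 8.97 and 9.15 by another. Cd14, also a macrophage marker, read 10.50 and 11.62 there against 9.41 and 9.34. In replicate 2 Cd14 read 9.79 and 10.37 in WT and 10.51 and 10.28 in KO cells. Of the 10 leukocyte and macrophage markers the other 8 lay under 5 on all arrays. The log2 summed level of the list was 10.73 and 11.14 in replicate 2 and 10.96 and 11.87 in replicate 3 of WT cells, and 11.39 and 10.77 in replicate 2 and 10.29 and 10.33 in replicate 3 of KO cells. The part of these markers in the differences of Mmp3 and Mmp13 was not tested.

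**Figure D2:**
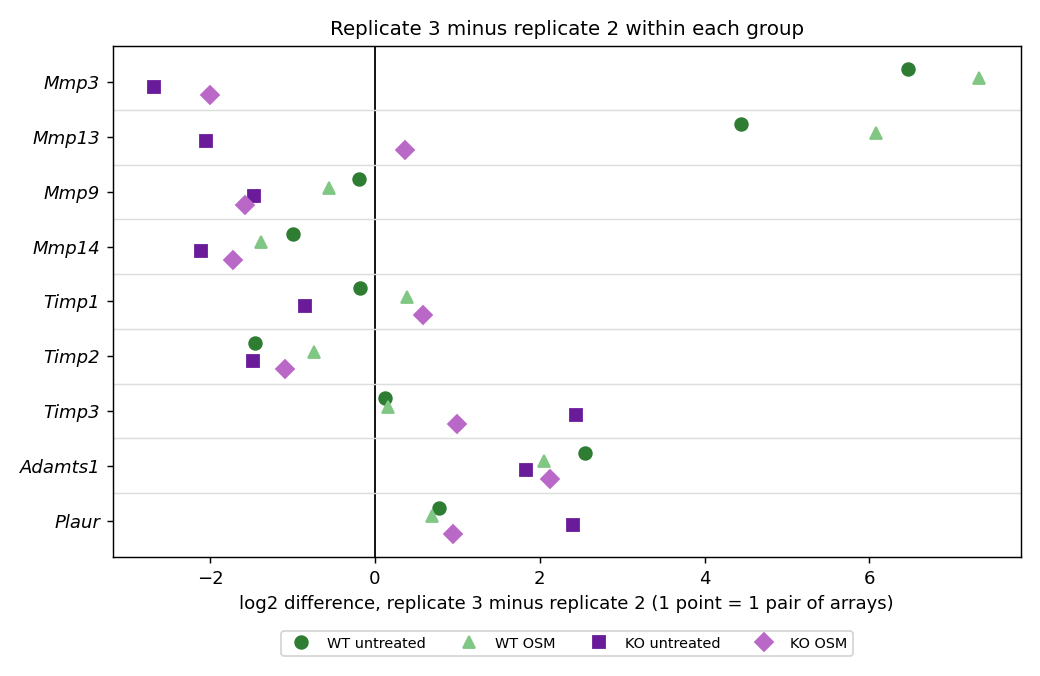
Difference between replicate 3 and replicate 2 (horizontal axis, log2) for the 9 genes tested, with 1 point for each group. Mmp3 is at 6.47 and 7.33 in WT and at -2.68 and -2.01 in KO cells, while Adamts1 lies to the right of 0 and Mmp14 and Timp2 to the left of 0 in all 4 groups.

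Timp1 differed by -0.18 and 0.39 between replicates 3 and 2 of WT cells, untreated and with OSM, and by -0.85 and 0.59 of KO cells, so it had no common direction. Each of the other 6 genes had the same sign in all 4 groups. By the limma fit with the number, 5 of the 9 genes differed, against 41.1% of all probe sets. The p-values of this fit rest on the spread of the difference between the 4 groups, not on further replicate numbers. Adamts1, which cleaves proteoglycans, was 2.14 ± 0.19 higher in replicate 3 (SE, adjusted p = 0.0032) and Plaur 1.21 ± 0.32 higher (adjusted p = 0.0321). Mmp14 differed by -1.55 ± 0.21 (adjusted p = 0.006), Timp2 by -1.19 ± 0.17 (adjusted p = 0.00699) and Mmp9 by -0.95 ± 0.29 (adjusted p = 0.0472). Raising all values under 5 to 5 ended the calls of Mmp9 (adjusted p = 0.223) and Plaur (0.132), and Mmp9 was also lost with the filter at 7 (0.0662). Leaving out any 1 array ended the call of Mmp9 (0.0503 to 0.141), and leaving out any 1 WT or KO OSM array ended that of Plaur (0.0631 to 0.0717).

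The first genotype comparison set the untreated KO cells against the untreated WT cells. None of the 9 passed the limma test, as none of the 6756 probe sets did (0%, with the replicate block as without), and 1 of the 9, Mmp9, had an unadjusted p under 0.05, against 151 (2.24%) of all. Stat3 itself was not called, at -2.36 and -7.56 by its first and second probe sets (limma adjusted p = 0.184 and 0.272 with the block). The lack of a call therefore does not show that a gene was the same in both lines. The median log2 difference of the 9 genes was 0.56, 0.96 within replicate 2 and 0.22 within replicate 3, and that of all 5195 genes tested was -0.07.

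The gelatinase Mmp9, which cuts denatured collagen and basement membrane, met the filter only through the KO line, with 4 KO arrays and 1 WT array at 5 or more, so a difference between the lines was built into its selection and its values are a description. On the WT arrays it read 4.51 (replicate 2) and 4.32 (replicate 3) before OSM and 5.52 and 4.96 after it, and on the KO arrays 8.79 and 7.32 before and 8.93 and 7.35 after. All 4 KO arrays thus lay above all 4 WT arrays, of which 3 were under 5. The difference was 3.64 ± 0.71 without OSM (SE, 95% interval 1.92 to 5.37, limma adjusted p = 1, and 0.184 with the replicate block), being 4.28 within replicate 2 and 3.00 within replicate 3. With OSM it was 2.91 ± 0.71 (SE, limma adjusted p = 0.81, and 0.114 with the block), being 3.42 and 2.39. The second Mmp9 probe set read 1.90 to 2.51 on all arrays, near background, and gives no information.

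Mmp9 is also made by macrophages and neutrophils. Of the 10 leukocyte and macrophage markers examined, only Csf1r and Cd14 reached 5 on at least 2 arrays, and the pan-leukocyte Ptprc read 3.2 to 4.3 and Itgam 1.9 to 2.4 on all arrays. The log2 of the summed marker level was 10.73 to 11.87 in WT and 10.29 to 11.39 in KO cells. The genes nearest to Mmp9 in profile were Ccl17, Capg and Capn6 (distances 0.36, 0.39 and 0.44). Capg, an actin-capping protein, read 8.83 to 9.81 in WT and 11.29 to 13.13 in KO cells, and the chemokine Ccl17 read 4.02 to 4.98 and 6.39 to 7.69. Both were chosen for likeness to Mmp9 over these same arrays, so the shared difference between the lines follows from the choice. Ccl17 lay under 5 on all WT arrays and met the filter only through the KO line.

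**Figure D3:**
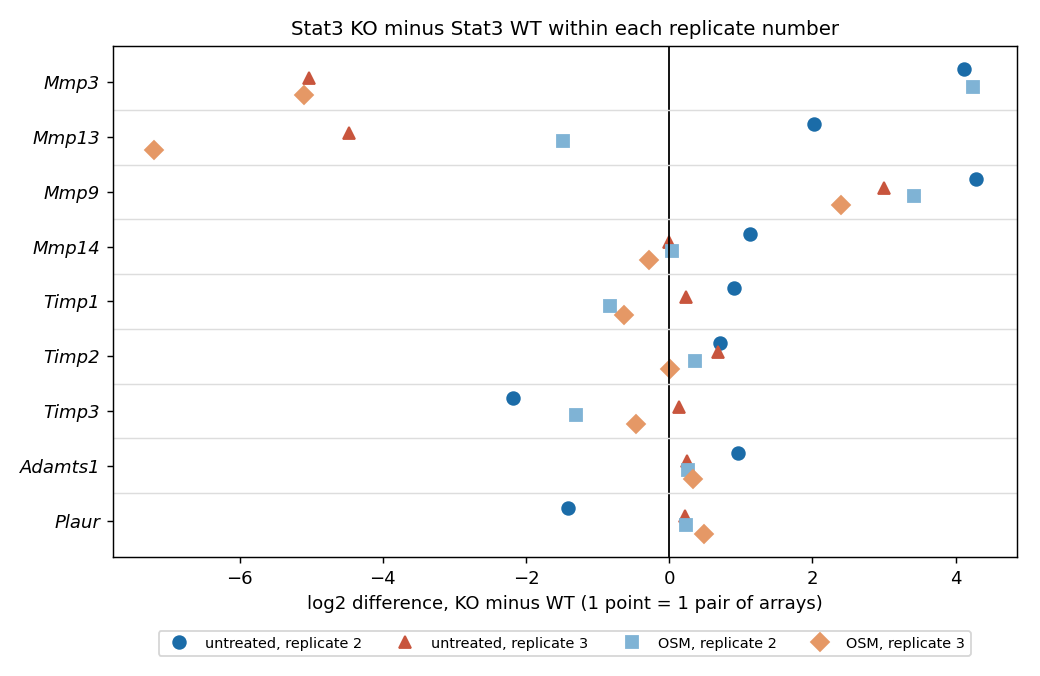
KO minus WT (horizontal axis, log2) for the 9 genes tested, with 1 point for each replicate number and treatment. Mmp9 lies right of 0 in all 4 pairs, from 2.39 to 4.28, while Mmp3 lies at 4.12 and 4.24 in replicate 2 and at -5.03 and -5.10 in replicate 3.

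The other members differed less between untreated lines. Mmp14, which activates proMmp2 at the cell surface, read 12.42 and 11.42 in replicates 2 and 3 of WT and 13.54 and 11.42 in KO cells, a difference of 1.12 within replicate 2 and 0.0020 within replicate 3. Timp3, the matrix-bound inhibitor, read 14.86 and 14.98 in WT, and 12.67 and 15.11 in KO cells, so that 1 untreated array, KO replicate 2, was low. The OSM array of KO replicate 2 was also lower, at 13.82 against 14.81 in KO replicate 3 and 15.11 and 15.28 in WT cells. Timp2 differed by 0.71 and 0.68, Timp1 by 0.91 and 0.24, Adamts1 by 0.96 and 0.25 and Plaur by -1.41 and 0.22 within replicates 2 and 3 (limma adjusted p = 1 each). Timp2 had nearly the same difference in both numbers, of 0.69 ± 0.24 with the replicate block (SE, limma adjusted p = 0.462). The other Timp2 probe sets read 3.22 to 3.84 and 0.998 to 1.41 on all arrays, near background, and give no information. Mmp2 was not tested, since its probe sets read 0.73 to 2.19 on all arrays.

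With OSM in both lines, the genotype comparison again called none of the 9 genes, while 1 probe set (0.0148%) passed in all, and 7 (0.104%) with the replicate block. At an unadjusted limma p under 0.05 it was 1 of the 9, Mmp9, against 3.6% of all. The median of the 9 was -0.12 and that of all genes was -0.01. Timp1 turned from higher to lower readings in KO cells, at -0.82 and -0.63 within replicates 2 and 3 with OSM (pooled -0.73 ± 0.39, SE, limma adjusted p = 1). Mmp9 and Mmp13 were the genes with differences of at least 1 in the same direction within both numbers, 2 of 9 against 3.77% of all probe sets, a count that includes Mmp9, which its KO arrays brought past the filter. The remaining values were -1.29 and -0.46 for Timp3, 0.36 and 0.01 for Timp2, 0.26 and 0.34 for Adamts1, 0.05 and -0.29 for Mmp14 and 0.23 and 0.48 for Plaur.

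The next comparison asked what OSM did to these genes in WT cells. None of the 9 passed the test over all probe sets, and none of the 6756 did (0%), while 1 (0.0148%) did with the replicate block. Socs3 was not called either, at 4.89 and 4.70 by its first and second probe sets (limma adjusted p = 0.441 and 0.256 with the block). Here too the lack of a call does not show that a gene was unchanged. An unadjusted limma p under 0.05 was reached by 1 of the 9, Timp1, and by 1.87% of all. The median of the 9 genes was 0.37, against -0.06 for all genes, with 6 of the 9 above 0 and none below 0 in both numbers, where 26.4% of all probe sets were above and 40.2% below. Timp1 and Mmp13 had differences of at least 1 in both numbers, 2 of 9 against 2.01% of all probe sets in that direction.

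Timp1, which blocks most secreted metalloproteases, read 11.49 and 11.31 in untreated WT cells and 12.91 and 13.30 with OSM. Both OSM arrays lay above both untreated arrays, by 1.43 within replicate 2 and 1.99 within replicate 3. The difference of 1.71 ± 0.39 (SE, 95% interval 0.77 to 2.65, 3.27-fold) had an unadjusted p of 0.0043 and did not pass adjustment (limma adjusted p = 1, and 0.369 with the replicate block). In KO cells Timp1 read 12.40 and 11.55 untreated and 12.09 and 12.67 with OSM, so the groups overlapped, with differences of -0.31 and 1.13 within replicates 2 and 3. The responses differed between the lines by -1.30 ± 0.55 (SE, 95% interval -2.63 to 0.03, limma adjusted p = 1, and 0.913 with the block), being -1.74 and -0.87 in the 2 numbers. With the block the 95% interval was -2.59 to -0.010, which leaves out 0, while the interval without it holds 0 (limma adjusted p = 0.913 with the block, unadjusted 0.0487). The second Timp1 probe set read 1.75 to 2.33 on all arrays and gives no information.

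The profiles nearest to that of Timp1 were those of Nedd4l, Xdh and Znrf1 (distances 0.21, 0.22 and 0.24). Xdh, the enzyme that makes uric acid, read 8.97 and 10.74 untreated and 10.20 and 12.72 with OSM in WT cells, and 10.25 and 11.22 untreated and 10.16 and 11.76 with OSM in KO cells. Like Timp1, it was above its untreated level with OSM in both numbers of WT cells and in replicate 3 of KO cells. It was chosen for its likeness to Timp1 over these arrays.

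In replicate 3 of WT cells Mmp13 read 8.32 untreated and 11.62 with OSM, and in replicate 2 it read 3.87 and 5.54. The differences were 3.30 and 1.67 (pooled 2.49 ± 2.25, SE, limma adjusted p = 1). The second of these starts from a value under 5, and with values under 5 set to 5 it was below 1. In KO cells the differences were -1.84 and 0.58, and 3 of these 4 values were under 5. Mmp3 differed by -0.43 and 0.43 in WT and by -0.31 and 0.36 in KO cells, so no OSM difference in 1 direction was seen beside its replicate difference.

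**Figure D4:**
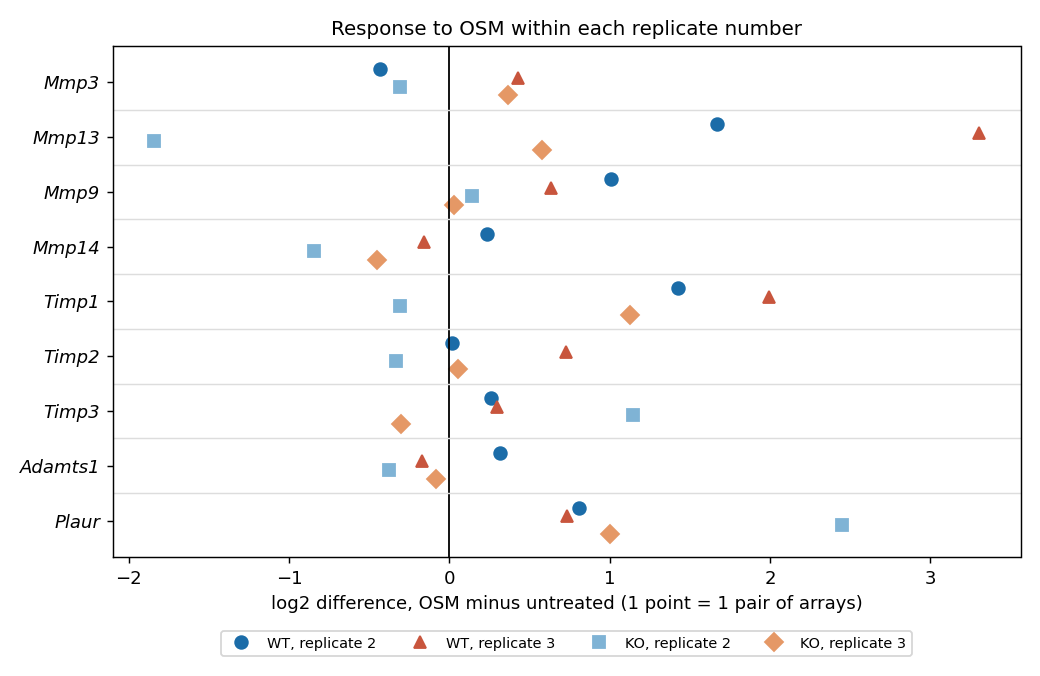
OSM minus untreated (horizontal axis, log2) for the 9 genes tested, with 1 point for each line and replicate number. Plaur lies right of 0 in all 4 pairs, from 0.73 to 2.45, and so does Mmp9, from 0.03 to 1.01. Timp1 lies at 1.43 and 1.99 in WT and at -0.31 and 1.13 in KO cells.

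Plaur, which focuses urokinase and thus plasmin formation on the cell surface, had OSM differences above 0.5 in both lines and both numbers. It read 9.03 and 9.80 untreated and 9.84 and 10.54 with OSM in replicates 2 and 3 of WT cells, and 7.62 and 10.02 untreated and 10.07 and 11.02 with OSM in KO cells. The difference was 0.77 ± 0.84 in WT (0.81 and 0.73 within the numbers) and 1.72 ± 0.84 in KO cells (2.45 and 0.999), with a limma adjusted p of 1 for each (SE). With the replicate block the adjusted p was 0.859 and 0.379. The untreated array of KO replicate 2 was the lowest of the 8, and without it the KO difference was 0.52 (0.93 with the block). A difference of at least 0.5 in all 4 pairs held for 163 probe sets (2.41%), a threshold chosen after the values were seen. A difference above 0 in all 4 pairs held for 903 probe sets (13.4%), and Mmp9 was also above 0 in all 4. The responses of the lines differed by 0.95 ± 1.19 (SE, 95% interval -1.93 to 3.84, limma adjusted p = 1).

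In KO cells OSM called none of the 9 genes and none of all probe sets (0%, and 0.0296% with the replicate block). An unadjusted limma p under 0.05 was reached by none of the 9 and by 138 probe sets (2.04%). None of the 9 reached a difference of 1 in the same direction in both numbers, against 2.71% of all. The median of the 9 genes was 0.03, and that of all genes 0.01. Mmp14 differed by -0.84 and -0.45 within replicates 2 and 3, Timp3 by 1.14 and -0.30, Mmp9 by 0.14 and 0.03, Timp2 by -0.33 and 0.05 and Adamts1 by -0.38 and -0.08. The corresponding values in WT cells were 0.23 and -0.16 for Mmp14, 0.26 and 0.30 for Timp3, 1.01 and 0.64 for Mmp9, 0.02 and 0.73 for Timp2 and 0.32 and -0.17 for Adamts1. Of the 4 WT values of Mmp9, 3 lie under 5, and on raising values under 5 to 5 its pooled OSM difference in WT cells went from 0.82 to 0.26 and the difference between its responses from -0.74 to -0.18. The test of the difference between the responses called none of the 9 genes and none of all probe sets (0%, with the replicate block as without). An unadjusted limma p under 0.05 was reached by none of the 9 and by 29 probe sets (0.429%). Timp1 had the smallest p of the 9. Mmp13 differed by at least 1 in the same direction in both numbers, at -3.51 and -2.73, 1 of 9 against 2.19% of all probe sets.

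Other genes of extracellular proteolysis were read from a list of 46, of which 31 were on the array and 21 were tested. None passed in any of the 5 comparisons, in either direction. Their median differences lay between 0.02 and 0.08. Serpinb2, an inhibitor of urokinase, read 2.38 and 2.94 untreated and 6.36 and 9.91 with OSM in WT cells, and 2.38 and 2.73 untreated and 4.19 and 5.30 with OSM in KO cells. All 4 OSM arrays lay above all 4 untreated arrays. A difference of at least 0.5 in all 4 pairs, as seen here, held for 2.41% of all probe sets. The untreated arrays and KO OSM replicate 2 were under 5, near background. Serpinb2 thus met the filter only through the other 3 OSM arrays. An OSM difference was built into its selection, and its values are a description. Its difference was 5.47 ± 1.13 in WT and 2.19 ± 1.13 in KO cells (SE, limma adjusted p = 1 each), and the responses differed by -3.29 ± 1.59 (adjusted p = 1). Within replicates 2 and 3 that difference between the responses was -2.18 and -4.40.

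The 3 genes of the list with the smallest p in each comparison are named without having passed (limma adjusted p = 1 each), with the pooled difference ± SE and then those within replicates 2 and 3. Between the untreated lines the shedding protease Adam10 differed by -0.76 ± 0.45 (-0.96 and -0.56), Adam8 by 1.53 ± 1.04 (3.16 and -0.095) and Adam12 by -0.49 ± 0.36 (-0.71 and -0.26). The difference of Adam8 there rests on replicate 2. Between the OSM-treated lines Serpinb2 differed by -3.39 ± 1.13 (-2.17 and -4.61), Adam8 by 2.94 ± 1.04 (2.82 and 3.05) and the lysosomal protease Ctsb by -0.53 ± 0.22 (-0.63 and -0.44). For OSM in WT cells Serpinb2 (3.98 and 6.96 within the numbers) was followed by the membrane-anchored metalloprotease inhibitor Reck, at -0.78 ± 0.43 (-0.30 and -1.26), and Ctsb, at 0.31 ± 0.22 (0.25 and 0.37). Reck read 4.91 and 5.36 untreated and 4.61 and 4.10 with OSM there, so its values were near background and its difference is not exact. For OSM in KO cells Serpinb2 (1.81 and 2.56) was followed by Adam8, at 1.78 ± 1.04 (0.42 and 3.13), and the plasmin inhibitor Serpinf2, at -1.48 ± 0.95 (-1.12 and -1.83). For the difference between the responses Serpinb2 was followed by Ctsb, at -0.64 ± 0.31 (-0.81 and -0.47), and Adam10, at 0.75 ± 0.64 (1.08 and 0.41). Adam8, a cell-surface protease, read 3.41 to 4.32 on the WT arrays and on KO untreated replicate 3, and 6.55 to 7.14 on the other 3 KO arrays. It thus met the filter only through the KO line, so a difference between the lines was built into its selection. Its WT values were near background, and its differences are a description. The urokinase gene Plau read 1.61 to 2.07 on all arrays, and the tissue plasminogen activator Plat read 11.08 to 12.51.

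**Figure D5:**
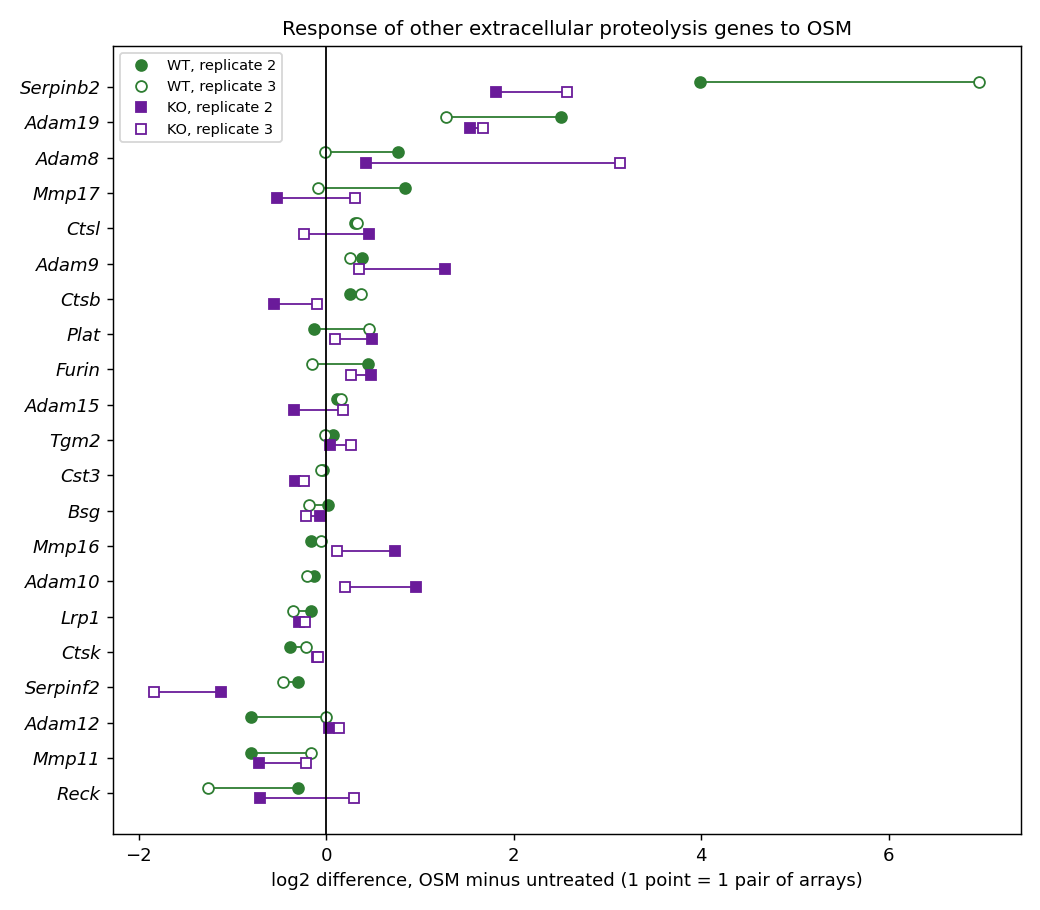
OSM minus untreated (horizontal axis, log2) for the 21 other extracellular proteolysis genes tested, with circles for WT, squares for KO, filled symbols for replicate 2, open symbols for replicate 3 and a line joining both. Serpinb2 lies farthest right in WT cells, at 3.98 and 6.96, and at 1.81 and 2.56 in KO cells.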

How the data were processed

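RNA of 8 fibroblast samples was read on 1-colour Affymetrix arrays, per the labels' protocols. The authors deposited 1 log2 value for each probe set. Per the submitters' processing notes they used affy and GCRMA, for which the sources used here name neither a version nor the arrays normalized jointly. GCRMA removes a background modelled from probe sequence, so dim values rest on that model. Of 12488 probe sets, 66 controls were set aside and 6756 were tested. Symbols came from the platform annotation, and the gene IDs of all 15 member probe sets matched RefSeq (GRCm38.p6).

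Groups and replicate numbers come from the titles. Tests used limma 3.58.1 (R 4.3.3; 4 group means, intensity trend, two-sided, 4 residual degrees of freedom), with Benjamini-Hochberg adjustment over all probe sets tested and a threshold of 0.05. The fits without and with the replicate block were run on simulated data whose number effect was the same in all groups. Recovery of the differences put in was required only of the fit with the block. The genotype by number fit was not checked in this way. Across probe sets, the differences between replicates 3 and 2 correlated at 0.91 between the WT groups and 0.79 between the KO groups. Between a WT and a KO group the correlation was 0.59 to 0.66. The block fits 1 number difference for all groups and does not model one that differs between the lines. What the number marks is not stated, so the block is an alternative. It lowered the median standard error of the OSM comparison in WT from 0.49 to 0.28. A gene was represented by its tested probe set with the highest mean.

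The rule for named genes took all 10 members, Stat3 and Socs3, called genes of the proteolysis list or else the 3 with the smallest p per comparison, and the 3 nearest profiles of Mmp3, Mmp9, Mmp13 and Timp1. Lum, Saa3, Capg, Ccl17 and Xdh were picked from the latter, and Plau and Plat from the list, after their values were seen, as were the cluster neighbours of Mmp3 and the genes with opposite differences. The members, lists and tests were chosen with earlier results of these data known. Marker lists for fibroblasts, leukocytes, epithelium, endothelium, muscle, and cartilage and bone were read. Alternatives were other filters, eBayes settings, only the groups compared, renewed quantile normalization, values under 5 set to 5, the replicate block, other probe sets and leaving out each array.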

Additional observations from a re-analysis of the deposited data

Results flagged for a closer look

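For Mmp3 the change from replicate 2 to replicate 3 differed between the lines by 9.24 on the log2 scale (WT minus KO, limma adjusted p = 0.0046), with mean changes of 6.90 in WT and -2.34 in KO cells. For Mmp13 it differed by 6.10 (limma adjusted p = 0.035), with mean changes of 5.26 and -0.84. Both were picked out because the same contrast had unequal sizes in the 2 lines. The term was added after the values were seen. Its p-values rest on the spread between untreated and OSM arrays of a line, not on how a line varies from number to number.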

How the results depend on the processing

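Over the 5 genotype and OSM comparisons, the 9 genes gave 1098 values under alternative settings, of which 0 passed the limma threshold. The smallest adjusted p was 0.114, for Mmp9 between the OSM-treated lines with the replicate block. The replicate block called 0 members in each comparison, and over all probe sets it called 7 against 1 between the OSM-treated lines, 1 against 0 for OSM in WT and 2 against 0 for OSM in KO cells. It gave 653 unadjusted p-values under 0.05 between the untreated lines, against 151 without it. The sign turned in 97 of the 1098 values, 59 of them on leaving out 1 array without a block, which by construction adds part of the replicate difference. Mmp3 turned sign after quantile normalization for OSM in WT (0.013) and KO cells (-0.077) and for the difference between the responses (-0.090), and with values under 5 set to 5 for OSM in WT cells (0.086) and for the difference between the responses (-0.059). Mmp9 turned to -0.0045 for OSM in KO cells after quantile normalization.

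Leaving out 1 array at a time, with and without the block, turned the sign of the following differences. Between the untreated lines they spanned -0.67 to 1.88 for Adamts1, -4.06 to 1.61 for Mmp13, -0.49 to 1.62 for Mmp14, -3.76 to 2.85 for Mmp3, -1.80 to 0.60 for Plaur, -0.047 to 1.43 for Timp2 and -2.24 to 0.19 for Timp3. Between the OSM-treated lines they spanned -0.76 to 1.37 for Adamts1, -0.98 to 0.74 for Mmp14, -4.09 to 3.24 for Mmp3, -0.12 to 0.83 for Plaur and -0.36 to 0.73 for Timp2. For OSM in WT cells they spanned -1.202 to 1.35 for Adamts1, -0.55 to 5.53 for Mmp13, -0.66 to 0.73 for Mmp14, -3.67 to 3.67 for Mmp3, -0.35 to 1.10 for Timp2 and -0.26 to 0.81 for Timp3. For OSM in KO cells they spanned -1.29 to 0.84 for Adamts1, -3.47 to 2.21 for Mmp13, -1.70 to 0.41 for Mmp14, -3.28 to 3.33 for Mmp3, -0.71 to 0.87 for Mmp9, -0.15 to 0.97 for Timp1, -0.88 to 0.60 for Timp2 and -0.80 to 1.64 for Timp3. For the difference between the responses they spanned -1.58 to 0.97 for Adamts1, -1.74 to 0.37 for Mmp14, -3.64 to 3.69 for Mmp3, -1.53 to 0.053 for Mmp9, -0.25 to 2.15 for Plaur, -1.25 to 0.23 for Timp2 and -1.07 to 1.36 for Timp3. Between replicates 3 and 2 they spanned -0.21 to 0.27 for Timp1. For the genotype by number term they spanned -0.48 to 0.96 for Timp1 and -0.17 to 0.55 for Timp2.

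Members separated by at least 1 within both numbers went from 0 to 1 for OSM in KO cells after quantile normalization, and with values under 5 set to 5 from 2 to 1 both between the OSM-treated lines and for OSM in WT cells. With values under 5 set to 5 the members called between replicates went from 5 to 3, and leaving out 1 array gave 3 to 4. The genotype by number term called 2 members, but 0 without the filter and 0 with values under 5 set to 5, and 0 to 3 on leaving out 1 array; the cause was not tested. Its other settings called 2. All groups have 2 arrays, and values under 5 are near background, which limits Mmp13, Mmp9 in WT cells and Mmp2.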

Other observations

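Among the 19 probe sets whose genotype difference had opposite signs in the replicate numbers, some went the way of Mmp3, with higher KO readings in replicate 2 and lower ones in replicate 3. They included the Wnt antagonist Sfrp2 (1.55 and -2.54 without OSM), Creg1 (1.46 and -1.42), Fndc1 (2.20 and -2.63), Nfatc3 (1.44 and -1.47) and the small proteoglycan Dcn (1.31 and -1.02). Others went the opposite way, among them the replication licensing factor Cdc6 (-2.16 and 2.86), the matricellular protein Ccn2 (-7.86 and 4.11), Id1 (-3.41 and 1.21) and Klf5 (-2.39 and 2.69). With Mmp3 itself, 6 of the 19 had the direction of Mmp3. The examples were picked with these values known.

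The other marker lists gave 2 of 6 epithelial, 3 of 6 endothelial and 2 of 6 muscle markers at 5 or more on at least 2 arrays, and 0 of the 2 cartilage and bone markers on the array. Of the fibroblast markers 7 of the 9 on the array reached that level. The muscle list had a log2 summed level of 12.78 to 13.34 in WT and 13.50 to 14.24 in KO cells. This rests on Acta2, which read 12.70 to 13.27 in WT and 13.40 to 14.22 in KO cells. Myog read 7.19 to 8.91 and 7.64 to 9.66, which overlap, and the other muscle markers stayed under 5 on all arrays.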
